A study of Rattus norvegicus with 12 samples.

Results

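Hmox1, Nqo1, Gclc, Gclm, Txnrd1, Srxn1, Slc7a11, Gsr and Ptgr1 were followed in rat hippocampal cultures after oxygen-glucose deprivation (OGD), a culture model of ischemia. These 9 genes encode enzymes and 1 transporter that protect cells from oxidants and reactive electrophiles, and they were taken from the 15154 genes named on the array. All 9 had a probe, and for each gene the probe with the highest mean signal over all arrays was used. The cells were primary hippocampal neurons of Wistar rats, prepared from embryos that the labels give as day 18 (E18) and kept in culture for 14 to 15 days. OGD cultures were held for 2 h in a saline buffer without glucose in an anaerobic chamber, and control (Ctrl) cultures were held for the same time in a like buffer with 25 mM glucose in an air/CO2 incubator. Both were then returned to conditioned medium and collected after 7 h or 24 h of recovery. Each of the 4 groups had 3 biological replicates from independent cultures, and whether the groups shared these cultures is not stated. The study's methods describe the cultures as mostly neurons with a minority of glial cells, so the RNA of each array comes from a mixture.

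NRF2, the product of Nfe2l2, is a transcription factor that is held at a low level by KEAP1, which presents it to a CUL3 ubiquitin ligase. Oxidants and electrophiles modify KEAP1, NRF2 accumulates, pairs with a small MAF protein and binds antioxidant response elements (AREs) near its target genes, while BACH1 competes for the same elements. In brain cultures the pathway is best known from astrocytes, and neurons are known for a lower NRF2 activity.

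The arrays were Agilent one-color arrays, where brighter spots mean more labeled RNA caught by the probe. Values are given as normalized log2 intensity, which is log2 of the deposited spot intensity minus the median of the same array, so that 0 is the array's median probe and a difference of 1 is a doubling. A gene was called when its fold was at least 2 and its unadjusted p from limma under 0.05, the thresholds of the study, and p-values are printed after adjustment over all probes. No probe passed an adjusted p of 0.05 for OGD against Ctrl at either time, with 3590 of 30367 probes under an unadjusted p of 0.05 at 7 h and 4160 at 24 h. There were 6 slides, and on each the Ctrl array and the OGD array shared their time and their replicate number. Between 78.3% and 87.1% of the spots of an array were well above background. The OGD 24 h replicate 1 array stood apart by its low median spot intensity of 130.6 units, against 234.2 to 660.3 units on the other 11 arrays. Calls of the probes used that rest on it are also given without it. All slides of a time were separate from those of the other time, so that time and slide cannot be told apart, and the spike-in probe lay between -2.62 and -0.17 on the arrays of 7 h and between 1.85 and 6.32 on those of 24 h. From Ctrl to OGD it rose most on the slides of replicate 1, from -2.62 to -0.17 at 7 h and from 2.68 to 6.32 at 24 h. On those of replicate 2 it rose less, from -1.40 to -1.02 and from 2.49 to 3.07. On those of replicate 3 it fell, from -1.52 to -1.93 and from 3.01 to 1.85. Scaling to it was not repeated with arrays left out.

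Promoter stretches of the genes were searched for the core of the ARE, TGACNNNGC, on both strands, in the 250 bases before the start given by RefSeq (rat build GRCr8). Of the 9 genes, 6 have an entry, and Hmox1, Gsr and Ptgr1 are not shown. A match lay before the start of Gclm and of 1 of the 2 starts of Txnrd1, and also before that of Gpx2, a further NRF2-linked gene described with the results. In Srxn1 the window held TGAGTCA, the sequence bound by AP-1, which can overlap an ARE core. The ARE core was found in 10.1% and TGAGTCA, also on both strands, in 4.05% of all 33469 promoters of the same length. A match describes the letters only. No ARE core lay in the windows of Slc7a11, Gclc, Nqo1 and Srxn1, but bases farther from the start were not searched, so an ARE there would be missed. The 4 stretches are printed 5′ to 3′ on the strand of the gene with the matches in capitals. The 3 ARE cores lie on the opposite strand and therefore read GCNNNGTCA here. They are shown so that the letters of the ARE core in Gclm, Txnrd1 and Gpx2 can be compared with those of the AP-1 sequence in Srxn1.
Gclm, chr2:213031938-213031997, + strand: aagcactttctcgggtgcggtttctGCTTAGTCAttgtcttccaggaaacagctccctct
Txnrd1, chr7:22755948-22756007, - strand: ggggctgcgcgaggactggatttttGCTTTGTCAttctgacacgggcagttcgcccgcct
Gpx2, chr6:101230034-101230093, - strand: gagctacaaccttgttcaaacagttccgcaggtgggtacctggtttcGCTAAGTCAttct
Srxn1, chr3:161064724-161064783, + strand: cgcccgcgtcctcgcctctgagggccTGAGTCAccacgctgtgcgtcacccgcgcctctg

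At 24 h after OGD, 3 of the 9 genes were called and all 3 were higher: Ptgr1 (7.00-fold), Hmox1 (3.65-fold) and Nqo1 (2.75-fold). Over all 15154 named genes, 2.74% were called higher and 2.38% lower at that time. None of the 9 was called lower. The 9 genes were chosen with earlier results of these data known, and the study itself lists Ptgr1 among its most up-regulated genes at 24 h. The counts at 24 h are therefore descriptions that are not independent of that choice. At 7 h none of the 9 was called, against 1.56% of all genes called higher and 2.07% called lower. With 9 genes, a share near that background gives no member, so the count at 7 h is not apart from the background. The median log2 fold change of the 9 genes was 0.40 at 7 h and 0.48 at 24 h, beside -0.11 and -0.03 over all named genes, and 8 of 9 were above 0 at each time, but scaled to the spike-in probe the medians were -0.40 and -0.55 with 1 and 3 of 9 above 0, where the median of all probes also moved, to -0.86 and -1.01 from -0.06 and 0.01. From Ctrl to OGD the spike-in probe rose most on the slides of replicate 1 and fell on those of replicate 3. With the normexp background correction the median of the 9 genes was 0.07 at both times with 6 of 9 above 0, level with the 0.08 of all probes.

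**Figure D1:**
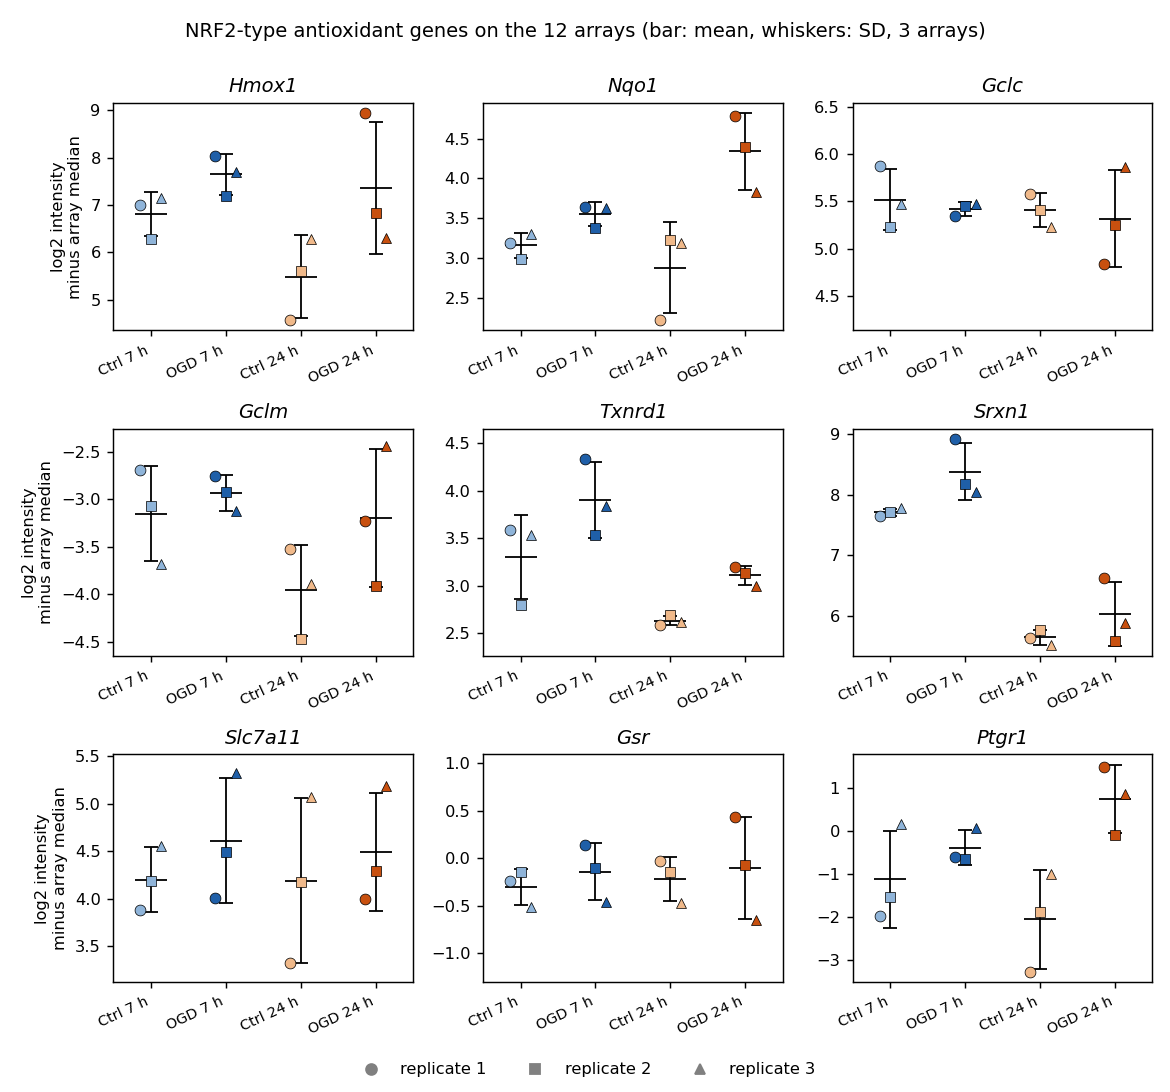
Normalized log2 intensity (y axis, log2 intensity minus the array median) of each of the 9 genes on the 12 arrays, by group (x axis), with 1 point for each array, a bar for the mean and whiskers for the SD of 3 arrays. Hmox1, Nqo1 and Ptgr1 have all OGD points at 24 h above all Ctrl points, for Hmox1 by the small gap from 6.28 to 6.30, while the points of Gclc, Slc7a11 and Gsr overlap.

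Hmox1 encodes heme oxygenase 1, which degrades heme to biliverdin, iron and carbon monoxide. At 24 h its normalized log2 intensity in Ctrl replicates 1, 2 and 3 was 4.57, 5.61 and 6.28. The OGD cultures had 8.94, 6.83 and 6.30. The groups did not overlap, but the lowest OGD array and the highest Ctrl array were almost level. The log2 fold change was 1.87 ± 0.64 (SE), with a 95% confidence interval of 0.46 to 3.28 and adjusted p = 0.294 in limma. The difference on the slide of replicate 1 was 4.37, on that of replicate 2 it was 1.21 and on that of replicate 3 it was 0.02. Replicate 1 therefore decided the size: without both arrays of replicate 1 the log2 fold change was 0.62, and without its Ctrl array alone it was 1.41, and Hmox1 was called in neither case. Without the OGD array of replicate 1 alone it was 1.08 and Hmox1 was still called. By the methods' t-test it did not pass either. At 7 h the Ctrl arrays had 7.01, 6.28 and 7.15, and the OGD arrays had 8.04, 7.20 and 7.70. Here each OGD array lay above each Ctrl array and the slide differences were alike, at 1.04, 0.92 and 0.55, yet the log2 fold change of 0.83 did not pass the test (95% confidence interval -0.58 to 2.24, adjusted p = 0.621).

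Nqo1 and Ptgr1 encode reductases that use NAD(P)H. Nqo1 is the quinone reductase that serves as a standard readout of NRF2 activity. At 24 h its Ctrl arrays had 2.22, 3.23 and 3.19 and its OGD arrays 4.79, 4.40 and 3.83. Every OGD array lay above every Ctrl array, and the log2 fold change was 1.46 ± 0.31 (SE), with a 95% confidence interval of 0.78 to 2.14 and adjusted p = 0.252 in limma. The 3 slides differed by 2.57, 1.17 and 0.64. Without replicate 1 the log2 fold change was 0.90, which passes the p threshold but not the fold of 2. Without OGD replicate 1 alone it was 1.24 and Nqo1 was called. With the normexp background correction it was 1.00 after rounding and also just missed that fold. At 7 h Nqo1 had 3.19, 2.99 and 3.30 on the Ctrl arrays and 3.64, 3.38 and 3.63 on the OGD arrays. The arrays of the groups were again apart, by differences of 0.46, 0.39 and 0.33 on the slides, and the log2 fold change of 0.39 did not pass the test (adjusted p = 0.629). Its response at 24 h exceeded that at 7 h by 1.07 on the log2 scale (95% confidence interval 0.10 to 2.03, adjusted p = 1). Of the 9 genes, Nqo1 was the only one with an unadjusted p under 0.05 for this difference, against 3.42% of all named genes, and without replicate 1 the difference was 0.54 and no longer under that p.

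Ptgr1 encodes prostaglandin reductase 1, which inactivates leukotriene B4 and reactive alkenals. It had the widest difference of the 9 genes. At 24 h the Ctrl arrays had -3.28, -1.88 and -1.01, and the OGD arrays had 1.49, -0.10 and 0.87. No OGD array fell within the range of the Ctrl arrays, and all 3 slides showed a difference of more than 1, with 4.77, 1.78 and 1.87. The log2 fold change was 2.81 ± 0.67 (SE), with a 95% confidence interval of 1.33 to 4.28 and adjusted p = 0.252 in limma. It was 2.44 without OGD replicate 1 alone and 1.82 without both arrays of replicate 1, and in the latter case Ptgr1 was the only one of the 9 genes still called. At 7 h the Ctrl arrays had -1.99, -1.53 and 0.16 and the OGD arrays -0.60, -0.65 and 0.08. Replicate 3 of the Ctrl arrays lay above all OGD arrays, so the groups overlapped, with a log2 fold change of 0.74 and adjusted p = 0.683. The response at 24 h exceeded that at 7 h by 2.07, with a 95% confidence interval of -0.02 to 4.16.

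**Figure D2:**
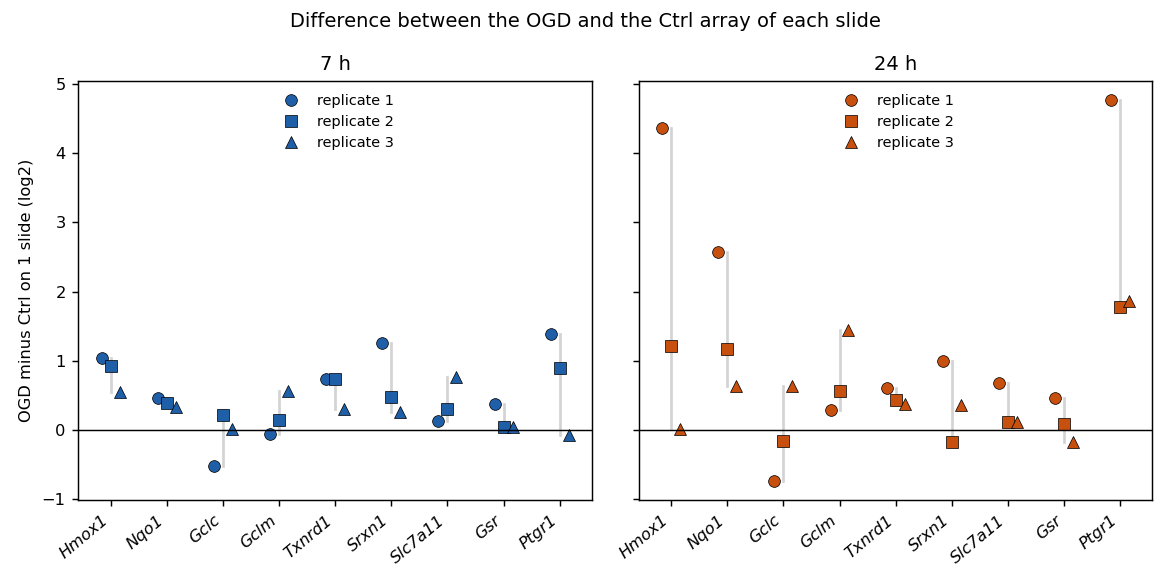
Difference in normalized log2 intensity between the OGD and the Ctrl array of the same slide (y axis) for the 9 genes (x axis), at 7 h on the left and at 24 h on the right, with 1 point for each slide. At 24 h the slide of replicate 1 gives 4.37 for Hmox1 and 4.77 for Ptgr1, while that of replicate 3 gives 0.02 and 1.87. The centring is that of the main values, and a rescaling to the spike-in probe would shift all points of a slide by 1 constant. That shift is downward for replicates 1 and 2, largest for replicate 1, and upward for replicate 3.

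Gclc and Gclm encode the catalytic and the modifier subunit of glutamate-cysteine ligase, the first step of glutathione synthesis. Gclc had 5.87, 5.23 and 5.47 on the Ctrl arrays of 7 h and 5.35, 5.45 and 5.47 on the OGD arrays. At 24 h it had 5.58, 5.41 and 5.23 in Ctrl and 4.84, 5.25 and 5.86 in OGD. The groups overlapped at both times. The log2 fold changes were -0.10 (95% confidence interval -0.68 to 0.48) and -0.09 (-0.67 to 0.49), and their sign turned with the centring or with 1 array left out. A doubling or a halving of Gclc lies outside both intervals under this centring, but scaled to the spike-in probe the values were -0.90 and -1.11. These scaled values carry the rise of the spike-in probe on the slides of replicate 1, while on those of replicate 3 it fell. Gclm was dim, and on Ctrl 24 h replicate 2 and OGD 24 h replicate 1 its spot was not well above background. At 7 h it had -2.69, -3.07 and -3.68 in Ctrl and -2.75, -2.92 and -3.12 in OGD, with a log2 fold change of 0.22 (adjusted p = 0.847). At 24 h the Ctrl arrays had -3.52, -4.47 and -3.89 and the OGD arrays -3.23, -3.91 and -2.44. The groups overlapped through replicate 2 of the OGD arrays, all 3 slides were higher in OGD, and the log2 fold change was 0.77 (95% confidence interval -0.09 to 1.62, adjusted p = 0.405). Without that OGD array it was 1.12, and Gclm was then called.

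Slc7a11 encodes the cystine/glutamate exchanger xCT, which supplies cysteine for glutathione, and Gsr encodes glutathione reductase, which recycles the oxidized form. Slc7a11 had 3.88, 4.18 and 4.55 in Ctrl at 7 h and 4.01, 4.49 and 5.32 in OGD. At 24 h it had 3.32, 4.17 and 5.07 in Ctrl and 4.0, 4.29 and 5.19 in OGD. The groups overlapped at both times, and the spread between replicates was wider than the difference between the conditions. All 6 slides were higher in OGD, by 0.11 to 0.77, and the log2 fold changes of 0.40 (adjusted p = 0.765) and 0.31 (adjusted p = 0.806) did not pass the test. A second probe of Slc7a11 gave 0.40 at both times. Gsr lay between -0.51 and -0.14 in Ctrl and between -0.46 and 0.14 in OGD at 7 h. At 24 h it lay between -0.47 and -0.03 in Ctrl and between -0.65 and 0.43 in OGD. Its log2 fold changes were 0.16 (95% confidence interval -0.46 to 0.77) and 0.12 (-0.50 to 0.74), so that a doubling lies outside both intervals under this centring.

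Txnrd1 encodes cytosolic thioredoxin reductase, and Srxn1 encodes sulfiredoxin, which restores overoxidized peroxiredoxins. These were the 2 of the 9 genes with an unadjusted p under 0.05 at 7 h, where 3.89% of all named genes were higher at that p, but the value of Srxn1 comes from a saturated probe and that of Txnrd1 lost this p without Ctrl replicate 2 (0.34). At 24 h the 3 called genes were the ones under that p, against 6.36% of all genes. Txnrd1 had 3.59, 2.80 and 3.53 in Ctrl at 7 h and 4.33, 3.53 and 3.84 in OGD. The lowest OGD array lay within the range of the Ctrl arrays, and the difference was seen on each slide, at 0.74, 0.74 and 0.31. The log2 fold change was 0.59 ± 0.25 (SE, 95% confidence interval 0.03 to 1.16, adjusted p = 0.403). At 24 h the arrays were tight: Ctrl had 2.58, 2.69 and 2.62 and OGD had 3.20, 3.13 and 3.0. All OGD arrays were above all Ctrl arrays, and the log2 fold change was 0.48 (95% confidence interval -0.09 to 1.04, adjusted p = 0.426 in limma). The methods' t-test put this difference under a p of 0.05 and limma did not, and the fold of 1.39 is below the threshold in both. A second Txnrd1 probe gave 0.66 (adjusted p = 0.601) and 0.63 (adjusted p = 0.557), with slide differences at 24 h from -0.43 to 2.06.

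Srxn1 had 7.65, 7.71 and 7.78 in Ctrl at 7 h and 8.92, 8.18 and 8.04 in OGD. The spots of Ctrl 7 h replicates 1 and 3 and OGD 7 h replicate 1 were saturated, so that these 3 values are lower bounds, and neither the order of the groups nor their difference can be read at 7 h. The computed log2 fold change was 0.66 (adjusted p = 0.411), and Fth1, whose probe was saturated on all 12 arrays, gave 0.65 in the same comparison. The slide of replicate 2, where neither spot was saturated, had a difference of 0.47. At 24 h Srxn1 had 5.63, 5.76 and 5.52 in Ctrl and 6.62, 5.58 and 5.88 in OGD, which overlapped, with a log2 fold change of 0.39 (adjusted p = 0.553) and 0.09 without OGD replicate 1. In both conditions the level was lower at 24 h than at 7 h, where the saturated values are lower bounds, with a log2 difference of -2.08 in Ctrl (adjusted p = 0.0388) and of -2.35 in OGD (adjusted p = 0.0197). By the probe used for each of the 9 genes, only Srxn1 was called lower in Ctrl at 24 h than at 7 h, against 4.27% of all named genes. For Hmox1 the difference between the Ctrl groups was -1.32 (adjusted p = 0.367) and for Txnrd1 -0.67 (adjusted p = 0.286). The second Txnrd1 probe was called lower at 24 h, with -1.09 in Ctrl (adjusted p = 0.326) and -1.12 in OGD (adjusted p = 0.275). Since the times lie on separate slides, these differences and those between slides cannot be told apart.

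**Figure D3:**
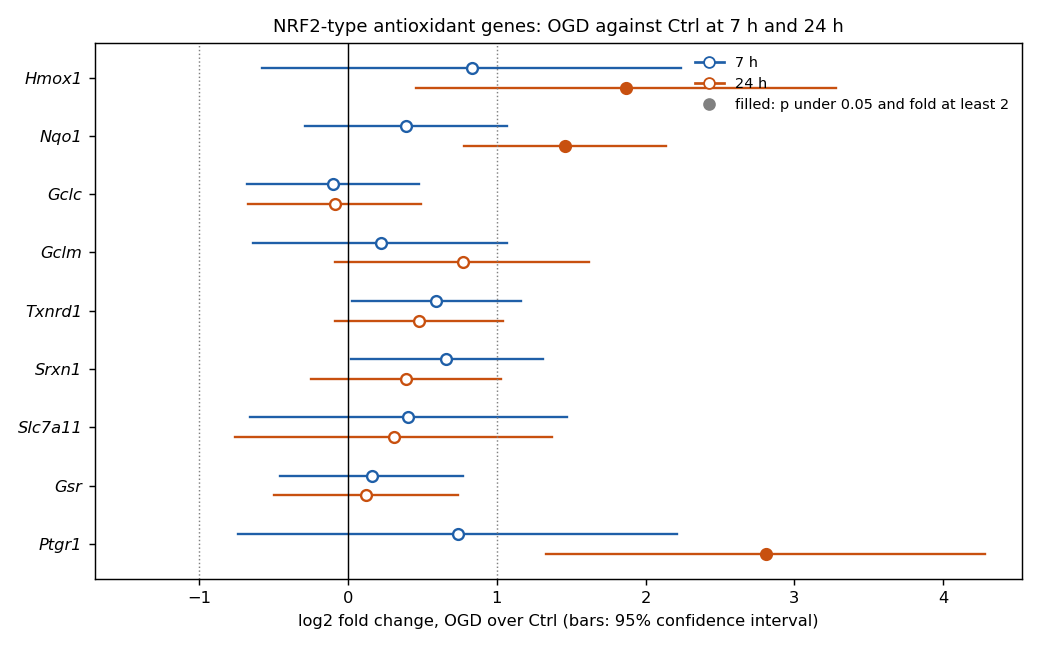
Log2 fold change of OGD over Ctrl (x axis) for the 9 genes (y axis) at 7 h and 24 h, with bars for the 95% confidence interval of limma and filled points for genes called. The filled points are Hmox1, Nqo1 and Ptgr1 at 24 h, and scaled to the spike-in probe none is called and 3 of 9 stay above 0 at 24 h.

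Counting arrays that do not overlap, all OGD arrays lay above all Ctrl arrays for 3 genes at 7 h (Hmox1, Nqo1 and Srxn1), against 7.58% of all named genes, and of these Srxn1 was saturated on 2 of the Ctrl arrays and cannot be read. At 24 h this held for 4 genes (Hmox1, Nqo1, Txnrd1 and Ptgr1), against 9.04% of all named genes. Slide by slide, between 7 and 9 of the 9 genes were higher in OGD, and for replicates 1, 2 and 3 the median difference at 7 h was 0.46, 0.39 and 0.31, while at 24 h it was 0.68, 0.44 and 0.37. The slide of replicate 1 had the highest median at both times. The order of the 4 group means separated few neighbours. Nqo1 in OGD was higher at 24 h than at 7 h (difference 0.79, adjusted p = 0.237) at an unadjusted p under 0.05, and the groups next to each other for Hmox1, Gclc, Gclm, Slc7a11, Gsr and Ptgr1 all had an unadjusted p above 0.05. For Srxn1 the step from Ctrl at 7 h down to OGD at 24 h was clear (adjusted p = 0.034).

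Among the 11 regulators of NRF2, with OGD against Ctrl median log2 fold changes of -0.02 at 7 h and -0.03 at 24 h, 1 was called higher at 7 h, none at 24 h and none lower. Over all named genes the medians were -0.11 and -0.03, with 1.56% called higher at 7 h and 2.74% at 24 h. The called gene was Maff, a small MAF partner, with 0.05, -0.29 and 0.17 in Ctrl and 2.50, 0.97 and 0.85 in OGD at 7 h. The log2 fold change was 1.46 (adjusted p = 0.36) and, just below the fold of 2, 0.97 without replicate 1. At 24 h Maff had -1.66, -1.37 and -1.33 in Ctrl and 0.99, -0.78 and -1.36 in OGD, with a log2 fold change of 1.07 (adjusted p = 0.426) that was 0.28 without replicate 1. Nfe2l2 itself had log2 fold changes of 0.61 (95% confidence interval -0.02 to 1.25) and 0.63 (-0.01 to 1.26), neither past the test. At 24 h its OGD arrays (4.39, 4.49 and 5.20) lay above its Ctrl arrays (3.79, 4.09 and 4.32). Scaled to the spike-in probe both values turned, to -0.19 and -0.40. Keap1 had 2.94, 3.26 and 3.07 in Ctrl and 2.43, 2.66 and 2.76 in OGD at 7 h, apart on all arrays, with a log2 fold change of -0.48 (adjusted p = 0.399) that is below the fold of 2. At 24 h its groups overlapped (-0.24, adjusted p = 0.586). Mafg, another small MAF, had -0.50 (adjusted p = 0.393) and -0.55 (adjusted p = 0.316), and its groups did not overlap at either time. The values of Nfe2l1, Cul3, Rbx1, Btrc, Sqstm1, Bach1 and Mafk lay between -0.34 and 0.37.

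A list of 27 further genes known as NRF2-linked, 26 of them with a probe, held 2 genes called higher at each time and none lower. Both were the same at the 2 times, Gpx2 and Akr1b8. The median of the list was 0.31 at 7 h and 0.28 at 24 h, beside -0.11 and -0.03 over all named genes. Of all named genes, 1.56% were called higher at 7 h and 2.74% at 24 h. The median of the list was not repeated with the spike-in probe or normexp. Gpx2, a glutathione peroxidase best known from the gut epithelium, had -1.59, -1.86 and -0.44 in Ctrl and 1.83, 1.12 and 0.78 in OGD at 7 h. At 24 h it had -4.08, -3.17 and -3.28 in Ctrl and 0.47, -0.77 and -0.81 in OGD. The arrays were apart by more than 1 on all 6 slides. The log2 fold changes were 2.54 ± 0.47 (SE, adjusted p = 0.175) and 3.14 ± 0.47 (adjusted p = 0.209), larger than the value of any of the 9 genes at the same time. Its second probe gave 1.98 and 2.15 and was called at both times. Without replicate 1 the values of the first probe were 2.10 and 2.44. The spot of Ctrl 24 h replicate 1 was not well above background.

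Akr1b8, an aldo-keto reductase, had 1.74, 2.31 and 3.73 in Ctrl and 3.56, 4.27 and 4.81 in OGD at 7 h. At 24 h it had 0.72, 1.35 and 2.07 in Ctrl and 5.00, 3.19 and 3.18 in OGD. Each slide was higher in OGD by more than 1, and the log2 fold changes were 1.62 (adjusted p = 0.358) and 2.41 (adjusted p = 0.262). At 7 h Akr1b8 was no longer called without Ctrl replicate 1 (1.19), nor without any of 3 other arrays of that time, and at 24 h it was 1.48 without replicate 1 and still called. Of the 26 genes, Idh1 had the lowest values, -0.29 and -0.60, neither past the test, and 0.02 at 24 h without replicate 1. The ferritin genes Fth1 and Ftl1 were saturated on all 12 arrays and give no measure of a change.

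**Figure D4:**
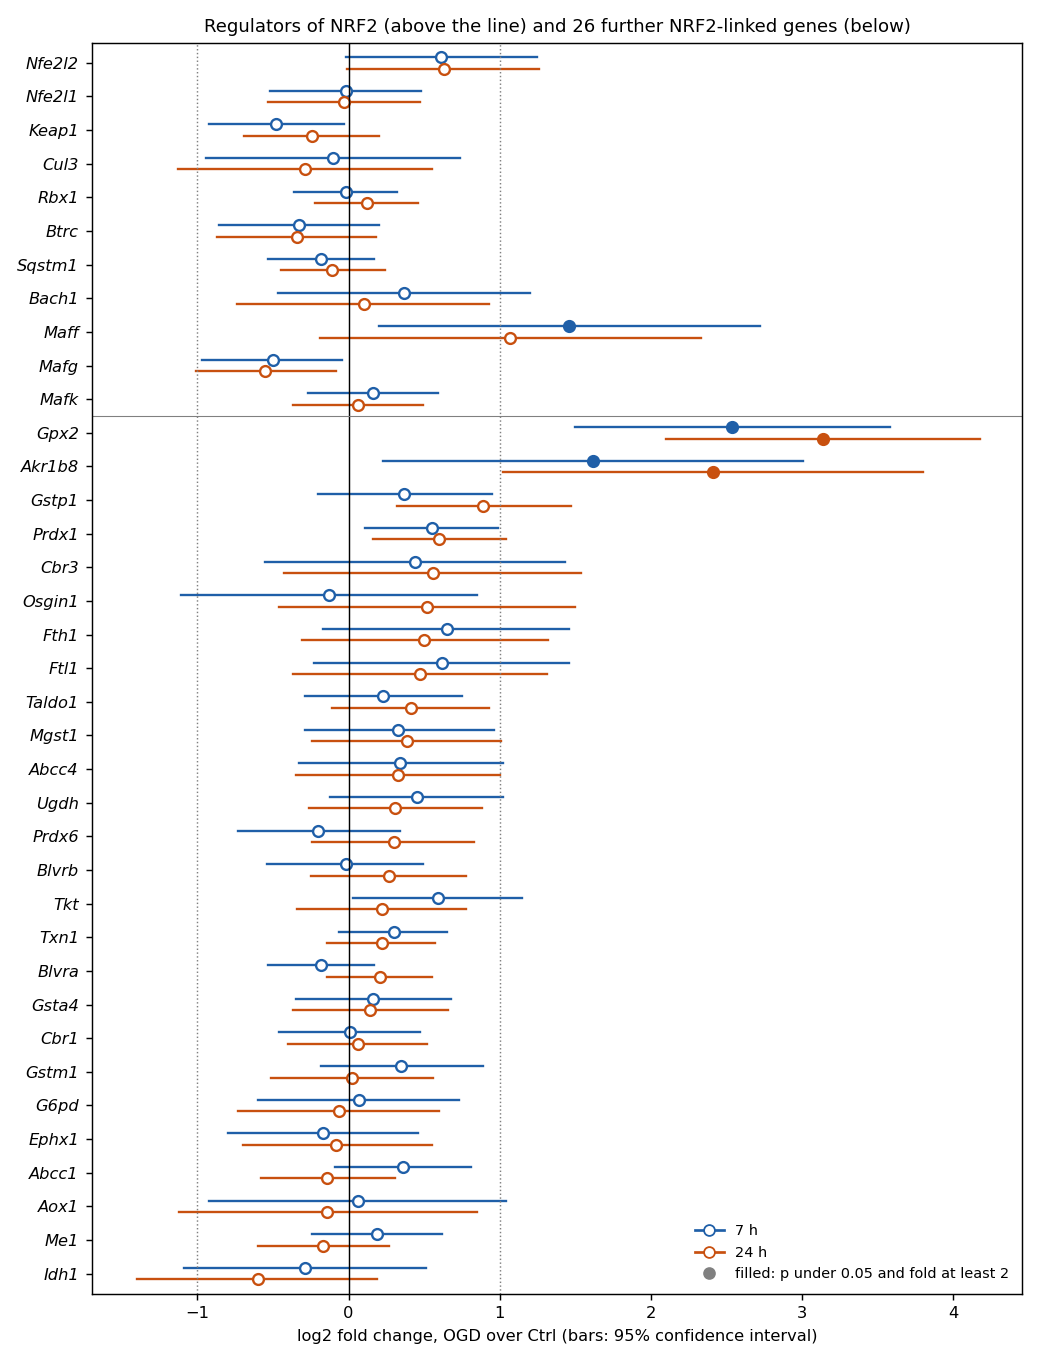
Log2 fold change of OGD over Ctrl (x axis) at 7 h and 24 h with 95% confidence intervals, for 11 regulators of NRF2 above the line and 26 further NRF2-linked genes below it, sorted by the value at 24 h. Filled points are called genes, which are Maff at 7 h and Gpx2 and Akr1b8 at both times, and scaled to the spike-in probe the latter values stay above 0.

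Of 20 other antioxidant and glutathione genes, 19 with a probe, none was called at 7 h and 1 was called at 24 h, the gamma-glutamyl transferase family gene Ggt7, which was lower with a log2 fold change of -1.03 (adjusted p = 0.318), or -0.44 without replicate 1 and -0.52 without OGD 24 h replicate 1, not called in either case. The medians of this list were -0.19 and -0.06, beside -0.11 and -0.03 over all named genes. Of all named genes, 1.56% were called higher and 2.07% lower at 7 h, and 2.74% and 2.38% at 24 h. Gpx1, a glutathione peroxidase, had the highest value of the list at 24 h (0.85) and 0.65 at 7 h. Gpx4 had 0.67 at 7 h from a probe saturated on 11 arrays, and its unsaturated second probe gave 0.21. None of 10 ATF4-linked genes was called, and the values of this list, whose pathway also drives Slc7a11, had medians of 0.05 and -0.20. By the probe used for each gene, none of the 8 heat shock genes with a probe was called, with Hspb1 at 0.82 and 1.19. Its value at 24 h rests on Ctrl replicate 1 and was 0.24 without that array. Without both arrays of replicate 1 it was 0.31, below the 0.63 of Bag3, a gene named after its values were seen. A second probe of the heat shock gene Hsp90aa1 was called higher at 7 h (1.03, adjusted p = 0.276 in limma) and gave 0.24 at 24 h. Another Hsp90aa1 probe gave 0.20 and 0.11 and was not called. Among 10 hypoxia genes Adm, which encodes adrenomedullin, was called at both times (1.39 and 1.06), but at 24 h it was 0.68 without OGD replicate 1 and not called. Pdk1 had -0.61 at 7 h. Vegfa had -1.0 at 24 h, or -0.26 without replicate 1, and its 3 other probes gave -0.25, -0.31 and -0.69. At 7 h it had -0.03, while the 3 other probes gave 1.28, 0.78 and 0.13, none of them called.

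The genes whose 6 slide differences were most like those of Hmox1 were searched among 10909 genes well above background on all arrays, by the root mean square difference. The nearest were Lgals3 (0.29), Piezo1 (0.30), Aebp1 (0.34), Capg (0.40) and Arhgap28 (0.41). Lgals3, which encodes galectin 3, differed by 4.70, 1.02 and 0.45 on the slides of 24 h. All 5 shared with Hmox1 a difference of more than 3 on the slide of replicate 1 at 24 h. This follows from the search, which took the genes nearest to Hmox1, whose difference on that slide was 4.37. Among the 9 genes, Nqo1 (0.85) and Ptgr1 (0.86) were nearest to Hmox1 by the same measure, over 6 slides that share their arrays between genes.

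Of 12 neuron markers, all had a log2 fold change below 0 at 24 h and 10 had one at 7 h. The medians were -0.82 at 24 h and -0.45 at 7 h, beside -0.03 and -0.11 over all named genes. The cell type markers are given beside the results for the 9 genes. For their calls, the shares of all named genes were 1.56% higher and 2.07% lower at 7 h, and 2.74% and 2.38% at 24 h. The mean normalized log2 intensity of 12 neuron markers lay between 4.30 and 4.69 in Ctrl and between 3.77 and 4.34 in OGD at 7 h. At 24 h it lay between 4.40 and 4.91 in Ctrl and between 3.16 and 4.19 in OGD, with the lowest value on OGD 24 h replicate 1. The markers called lower were Slc17a7 and Eno2 at 7 h and these with Syt1 and Gad1 at 24 h, and none was called higher. Without OGD 24 h replicate 1, Gad1 was -0.57 and Syt1 -0.94 at 24 h and neither was called, while Slc17a7 (-1.02) and Eno2 (-1.05) still were. Without replicate 1 altogether, Eno2 at 7 h (-1.03) was the only one of these calls that remained. A second Snap25 probe gave -1.25 at 7 h and, called lower, -1.56 at 24 h, with slide differences of -3.58, -0.87 and -0.22 at 24 h. The second probes of Gad1 (0.37 and -0.57) and Stmn2 (-0.23 and -0.73) were not called. Values without OGD 24 h replicate 1 are not given for second probes. Fewer cells of a type and less RNA per cell cannot be told apart in such samples. The mean of 11 astrocyte markers overlapped between the conditions at both times, at 4.95 to 5.25 against 5.07 to 5.38 at 7 h and 4.90 to 5.56 against 4.26 to 5.71 at 24 h, with its lowest value also on OGD 24 h replicate 1, and none of them was called. Of 11 microglia markers, which lay near or below the array median with means from -1.44 to -0.47, Cx3cr1 was called higher at 7 h (1.02, or 0.80 and not called without replicate 1), and Ptprc was not well above background on any array. A second Tmem119 probe gave -0.54 at 7 h and, called higher, 1.65 at 24 h, with slide differences of 3.4, 1.45 and 0.1 at 24 h. A second Aif1 probe gave 1.72 and 1.33, not called, where the probe used gave -0.19 and 0.29. The second probes of Csf1r and Ptprc were not called. Of 11 vascular and fibroblast markers, Pdgfrb was called higher at 24 h (1.34, or 0.99 and not called without replicate 1) and Cldn5 lower at 7 h (-1.48), and of 10 oligodendrocyte lineage markers Cspg4 was called lower at 7 h (-1.07, or -0.54 and not called without replicate 1). The mean of the 9 NRF2-type genes, by contrast with the neuron markers, ranged from 1.90 to 2.51 in Ctrl and from 2.82 to 3.45 in OGD at 24 h. The part of the cell mixture in the results for the 9 genes was not tested.

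**Figure D5:**
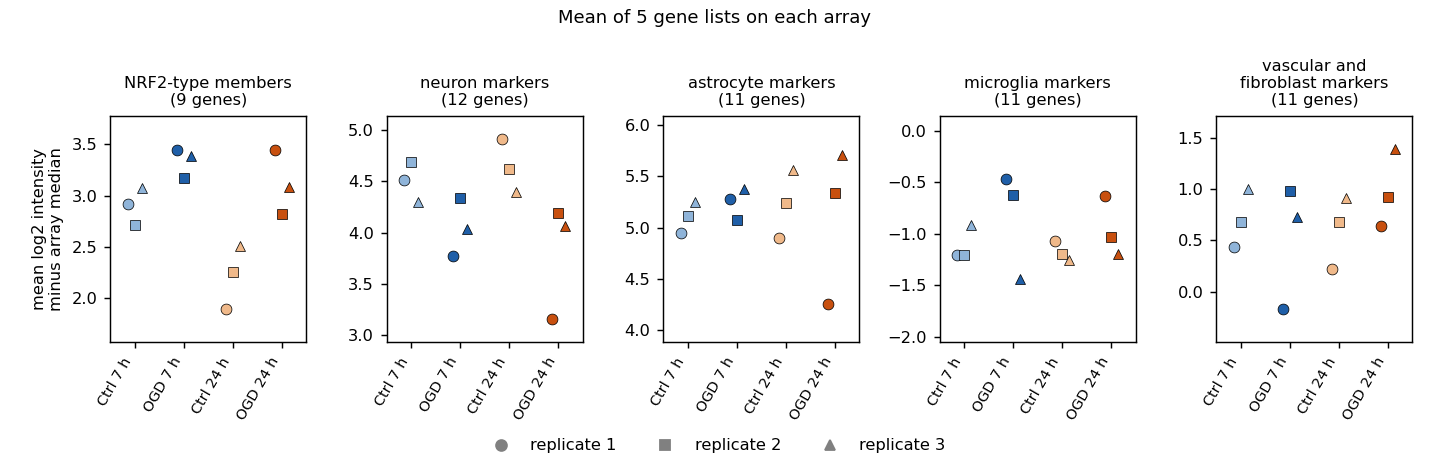
Mean normalized log2 intensity (y axis) of the 9 NRF2-type genes and of 4 lists of cell type markers on each array, by group (x axis), with a y axis of the same length in each panel. At 24 h the NRF2-type genes have means of 1.90 to 2.51 in Ctrl and 2.82 to 3.45 in OGD, of which 3 of 9 genes were called, the neuron markers have their lowest point, 3.16, on OGD 24 h replicate 1, and scaled to the spike-in probe the median log2 fold changes of the NRF2-type genes are -0.40 and -0.55, and with normexp they are 0.07 at both times.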

How the data were processed

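Total RNA of 12 cultures, 200 ng for each array, was labeled with Cy3 and hybridized by the authors to Agilent one-color rat arrays, 1 culture for each array. The deposited files are the scanner output of Feature Extraction 10.5.1.1, in which the intensity of each spot is already corrected for background and spatial trends, with arrays not yet scaled to each other. Log2 values of the authors were deposited too, and a check found them to differ from log2 of the intensity by 1 constant for each array in over 99.9% of probes.

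Spots flagged as outliers were left out, log2 intensity was averaged over the spots of a probe, and each array was centred on its median over non-control probes, as in the methods. No probe was removed for low signal. The number of arrays, 3 in each group, limits the precision. Of 30367 probes, 18004 were named through RefSeq and 12363 have no name. The test was limma 3.58.1 (R 4.3.3), fitted to all 4 groups at once with empirical Bayes moderation, and p-values are two-sided and adjusted by the Benjamini-Hochberg method over all probes. They set a mean difference against the spread between these cultures, which is pooled over the 4 groups and moderated. The procedure was tested on simulated data.

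The 9 genes and all gene lists were chosen with earlier results of these data known, and no list was tested as a set. The genes named are the 9 members, the regulators of NRF2, in other lists the genes called and those with the highest and lowest values at each time, and the 5 genes nearest to Hmox1. Snap25, Tmem119, Csf1r and Hsp90aa1 were added for their other probes. Alternatives were the 75th percentile, quantile normalization, the spike-in probe (1 of 10 kinds was usable), normexp, a filter on dim probes, flagged spots kept, the authors' log2 values, the methods' t-test, each time alone, the slide as a block, averaging the probes of a gene and leaving out arrays. The numbers of replicates did not pair the samples by their deviations, which correlated between -0.05 and 0.17 within a slide.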

Additional observations from a re-analysis of the deposited data

Results flagged for a closer look

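The response of Nqo1 to OGD at 24 h and at 7 h differed at an unadjusted p under 0.05, which did not hold after adjustment. Its log2 fold change at 24 h exceeded that at 7 h by 1.07 (95% confidence interval 0.10 to 2.03, adjusted p = 1 in limma over all probes), and each slide of 24 h (differences of 0.64 to 2.57) exceeded each slide of 7 h (0.33 to 0.46). Without replicate 1 the difference was 0.54, and there and with the slide as a fixed block it was no longer under that p. Among the 9 genes no other had an unadjusted p under 0.05 for this difference, and Ptgr1 (2.07, 95% confidence interval -0.02 to 4.16) came nearest. Of the cell type markers called at either time, the microglia marker Cx3cr1 differed between the times by -0.88 (95% confidence interval -1.73 to -0.02, adjusted p = 1 in limma), from 1.02 at 7 h to 0.14 at 24 h. The mural cell marker Pdgfrb differed by 1.44 (95% confidence interval 0.24 to 2.64, adjusted p = 1 in limma), from -0.10 at 7 h to 1.34 at 24 h. Both markers were looked at because they were called, each at 1 time only, and that choice favours a difference between the times. Neither was called without replicate 1, with 0.80 for Cx3cr1 at 7 h and 0.99 for Pdgfrb at 24 h. Over all named genes, 3.42% had an unadjusted p under 0.05 for the difference between the times.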

How the results depend on the processing

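The count of the 9 genes called at 7 h was 0 and the count called lower was 0 at both times under all 12 alternatives and all 13 settings that left arrays out. The count called higher at 24 h was 3, and it was 0 when arrays were scaled to the spike-in probe, 2 with normexp, 2 by the methods' t-test (smallest adjusted p 0.71), and between 1 (without replicate 1) and 4 (without OGD 24 h replicate 2, which adds Gclm) with arrays left out. With the replicate block, slide being fixed or random, the count was also 3. The fixed block took the difference of Nqo1 between the times (1.07) above the unadjusted p of 0.05, both blocks brought that of Ptgr1 (2.07) under it, and no other call changed with the block. Values of genes that were not called turned sign. Scaled to the spike-in probe, those at 7 h were -0.41 for Nqo1, -0.59 for Gclm, -0.21 for Txnrd1, -0.14 for Srxn1, -0.40 for Slc7a11, -0.65 for Gsr, -0.07 for Ptgr1 and -0.19 for Nfe2l2, and those at 24 h were -0.26 for Gclm, -0.55 for Txnrd1, -0.63 for Srxn1, -0.72 for Slc7a11, -0.91 for Gsr and -0.40 for Nfe2l2. With normexp, Nqo1 was -0.11 and Slc7a11 -0.18 at 7 h, and Slc7a11 was -0.08 and Srxn1 -0.05 at 24 h. Gclc was 0.02 at both times on the 75th percentile and 0.02 at 24 h after quantile normalization. With arrays left out, the ranges that include both signs were -0.24 to 0.11 (7 h) and -0.36 to 0.24 (24 h) for Gclc, -0.05 to 0.44 for Gclm at 7 h, -0.14 to 0.40 for Gsr and -0.13 to 0.75 for Slc7a11 at 24 h, and -0.12 to 1.56 for the difference of Hmox1 between the times. The spike-in probe rose most from Ctrl to OGD on the slides of replicate 1 and fell on those of replicate 3. Scaling to it was not repeated with arrays left out. The cause was not tested.

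Over all probes, 1126 were called higher and 595 lower at 24 h, against 20 and 517 with the spike-in probe, 190 and 553 with normexp and 1230 and 413 on the 75th percentile. At 7 h the counts were 631 and 505, against 74 and 284, 2047 and 871 and 708 and 349. Normexp on the median spot signal, in place of the mean signal planned, and leaving out replicate 1 as a whole were chosen after seeing the data, as was leaving out arrays for the other gene lists. The precision is limited by 3 arrays a group, and Gclm lay near background while Srxn1 was saturated on 3 arrays.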
